A study of Mus musculus with 3 samples.

Results

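Osteoclast-like cells were examined in 3 single-cell libraries from the calvaria, the flat roof of the mouse skull. They were chosen by their own measured levels: a cell barcode had to hold at least 10 UMIs of Ctsk, 10 of Acp5 and 2 of Atp6v0d2 per 10000 UMIs (CP10K), with Krt8 and Krt18 together under 5 and Col1a2 and Col3a1 together under 10. A UMI is a tag that counts 1 captured RNA molecule. Of 23831 barcodes kept with at least 500 genes and at most 10% mitochondrial UMIs, 905 met these limits. They numbered 17 of 6577 in the control library, 49 of 8151 in the scratch-negative library and 839 of 9103 in the scratch-positive library.

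All libraries came from C57BL/6 mice aged 8 weeks, and before loading, viable cells with and without CD45 had been combined in equal parts, so shares of all barcodes depend on that mixing. The control mice carried no tumour. The scratch-negative mice carried HNM007 cells, a mouse squamous carcinoma line, on an intact bone surface for 1 week, a state the labels call pre-invasive. For the scratch-positive mice the bone was first scratched with a needle, which strips the periosteum, and the state after 1 week is called invasive. The tumour was cut away before the calvaria was dissociated. Scratched bone that carried no tumour was not analysed here, so scratching, loss of periosteum and invasion cannot be told apart. The labels do not give the number of mice behind a library. With 1 library per group there is no spread between mice, no test was run, and every interval below is a 95% interval for counting error only.

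Osteoclasts resorb bone. They arise from precursors of the monocyte lineage under the cytokines CSF1 and RANKL, whose receptors are Csf1r and Tnfrsf11a (RANK), and the transcription factor Nfatc1 then switches on the genes for fusion and resorption. A mature osteoclast seals itself to bone with integrins and an actin ring, pumps protons through a vacuolar ATPase and secretes Ctsk (cathepsin K), Acp5 (tartrate-resistant acid phosphatase) and Mmp9 (a gelatinase) into the sealed space. Large multinucleated cells pass poorly through droplet devices, so the barcodes described here need not represent fully fused osteoclasts.

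The chosen cells carried an osteoclast profile beyond the genes that chose them. Oscar, an osteoclast-associated immune receptor that was not part of the choice, had a UMI in 23.5% of osteoclast-like cells in control, 34.7% in scratch-negative and 53.3% in scratch-positive, against 0.0864% and 1.92% of the other kept barcodes of the tumour libraries. Dcstamp, which osteoclast precursors need to fuse, had a UMI in 64.7%, 95.9% and 96.4%. Mmp9 is also a neutrophil gene and had a UMI in 74.1%, 73.3% and 58.8% of the other barcodes, so its presence alone marks little. Ptprc, which encodes CD45, had a UMI in 94.1%, 95.9% and 88.0% of osteoclast-like cells. The cells were deep, with medians of 40686, 46537 and 36922 UMIs in control, scratch-negative and scratch-positive. Their summed UMIs were 637029, 2539475 and 31880192, so the control values below are the least precise.

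Cells near the limits were few beside the 839 members of scratch-positive. There, 28 further barcodes failed on Ctsk alone, with a highest level of 8.98 CP10K against a lowest level of 10.1 among the chosen. Another 29 failed on Atp6v0d2 alone, with a highest level of 1.98 against 2.10. In the smaller classes they weighed more: 14 scratch-negative barcodes failed on Ctsk alone beside 49 members, and 3 control barcodes on Acp5 alone beside 17. In scratch-positive, more barcodes met the 3 lower limits and failed an upper one. Of 939 scratch-positive barcodes that met the 3 lower limits, members included, 86 exceeded the keratin limit, 22 the collagen limit, and 8 of these exceeded both. The 86 held a median of 91830 UMIs, and 89.5% of them had a UMI of Krt14, Krt17 or Perp, genes of the carcinoma cells. Members and other barcodes of the libraries shared few barcode sequences: 27 kept sequences occurred in both tumour libraries, and no sequence was a member in more than 1 library.

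Osteoclast-like cells were far more frequent where the bone had been scratched. They made up 0.258% of kept barcodes in control (0.151 to 0.414), 0.601% in scratch-negative (0.445 to 0.794) and 9.22% in scratch-positive (8.63 to 9.83). The 3 intervals do not overlap. Among barcodes under the keratin and collagen limits the shares were 0.265%, 0.688% and 19.8% (18.6 to 21.1 in scratch-positive). A still narrower denominator held the members plus 3 classes of mononuclear phagocytes, defined by Csf1r and Lyz2 with Arg1 (Arg1-positive macrophages), with C1q genes (C1q-high macrophages) or with Ccr2 (Ccr2-positive monocytes). Within it, osteoclast-like cells were 8.72% in control (5.16 to 13.6), 22.6% in scratch-negative (17.2 to 28.7) and 75.7% in scratch-positive (73.0 to 78.2). The phagocyte classes themselves held 178, 168 and 270 barcodes. Ccr2-positive monocytes, the class closest to circulating precursors, numbered 174, 145 and 93.

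**Figure D1:**
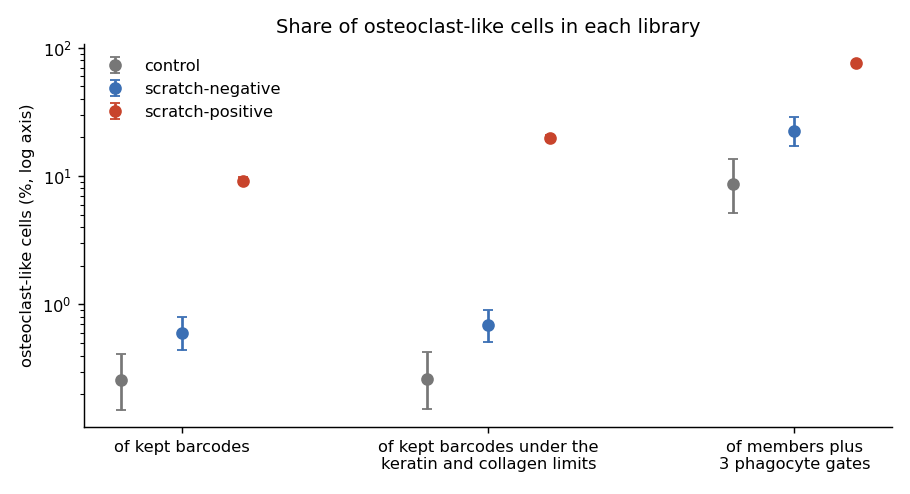
Share of osteoclast-like cells (percent, log axis) in each of the 3 libraries over 3 denominators; points are shares of barcodes and bars exact 95% intervals for counting error, with 1 library per group. The scratch-positive library is highest over each denominator, at 9.22%, 19.8% and 75.7%.

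The genes that chose the cells differed in level among the members. The median level of Ctsk per cell was 46.5 CP10K in control, 68.4 in scratch-negative and 111 in scratch-positive, with lowest to highest cells at 13.2 to 146, 10.2 to 213 and 10.1 to 398. The libraries overlap fully at the low end, and the upper end is set by scratch-positive. The median of Acp5 was 44.5, 54.7 and 54.5 CP10K, and that of Atp6v0d2, a subunit of the proton pump, was 8.86, 8.12 and 8.34. These 2 genes thus had nearly equal medians in the tumour libraries while Ctsk did not.

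UMIs were then summed over the members of each library and given as CPM, the count per 1000000 UMIs of the class. Scratch-positive was compared with scratch-negative over 6732 genes with a mean of at least 10 CPM. At 1.5-fold or more, 607 genes were higher (9.02%) and 421 lower (6.25%), and the median log2 ratio of all tested genes was 0.12. The 17 control cells fell short of the 20 set as the minimum for such a comparison, so their levels are given beside the others without a count of genes. Free RNA and RNA of adhering cells enter these sums. The 10 neutrophil marker genes, for example, summed to 24938 CPM in control members, 49075 in scratch-negative and 8887 in scratch-positive, and all 10 were lower in scratch-positive. The 11 epithelial markers summed to 3.14, 7.88 and 54.6 CPM, the 10 fibroblast markers to 17.3, 104 and 59.9, and the 8 erythroid and platelet markers to 64.4, 347 and 58.4. In 20.4% of scratch-negative members, 10 of 49, S100a8 and S100a9 together reached 50 CP10K, against 7.39% in scratch-positive.

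Matrix-degrading enzymes were the resorption genes with the highest share past the fold. Of 12 tested, 6 were higher in scratch-positive and 0 lower, with a median log2 ratio of 0.43 against 0.12 for all genes. Ctsk, among the 6, and Acp5 helped to choose the cells, so their values are a description. Ctsk, the main collagenase of bone, was at 6075 CPM in control, 6742 in scratch-negative and 11394 in scratch-positive, a ratio of 1.69 (1.66 to 1.72). Mmp9 was at 1931, 1980 and 3449 CPM, a ratio of 1.74 (1.69 to 1.79). For both genes control and scratch-negative lay close together and scratch-positive lay above. In members under 2 CP10K of mitotic genes Mmp9 was under the fold, at a log2 ratio of 0.54. The lysosomal proteases followed the same order: Ctsl (cathepsin L) was at 29.8, 94.1 and 214 CPM, Ctsz at 294, 505 and 814, and Ctsb at 213, 276 and 438. The other barcodes held more Ctsl than members in each library, in the same order, at 44.6, 169 and 449 CPM, and the part of free RNA was not tested. They held less Ctsz, at 73.6, 144 and 266 CPM, and less Ctsb, at 103, 161 and 199, than members, also in the same order. Lgmn, legumain, was at 62.8, 53.2 and 99.9 CPM in members and at 6.76, 29.7 and 76.9 in the other barcodes. Acp5 at 5284, 5567 and 6356 CPM stayed under the fold.

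The proton pump and its partners differed less. Of 20 acid-secretion genes tested, 5 were higher and 1 lower, with a median log2 ratio of 0.38. Atp6v1g1, a subunit of the pump's cytosolic sector, was at 936, 1257 and 2209 CPM in control, scratch-negative and scratch-positive. Atp6v1c1, another subunit of that sector, was at 267, 235 and 404 CPM, and Clcn7, the chloride channel that balances the pumped charge, was at 26.7, 30.7 and 48.1. Tcirg1, the osteoclast form of the membrane subunit a, differed little at 224, 208 and 221 CPM. Car2, the carbonic anhydrase that supplies the protons, was lowest in control at 116 CPM against 376 and 302, and its ratio of 0.804 (0.752 to 0.860) between the tumour libraries stayed under the fold. Car2 is also abundant in erythroid cells, and the other control barcodes held 435 CPM.

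Both dedicated fusion genes were higher. Dcstamp was at 113 CPM in control, 172 in scratch-negative and 358 in scratch-positive, a ratio of 2.08 (1.89 to 2.29). Ocstamp, its partner in fusion, was at 89.5, 91.4 and 185 CPM, a ratio of 2.02 (1.77 to 2.32). Scratch-positive was highest for both, while control and scratch-negative differed for Dcstamp only. The other 8 fusion genes tested, such as the tetraspanin Cd9 at 345, 430 and 578 CPM, stayed under the fold. After each cell was thinned to 10000 UMIs, Dcstamp had a UMI in 65.3% of scratch-negative members (95.9% before) and 87.3% of scratch-positive members (96.4% before). Of equally thinned neutrophils, 0.549% and 5.29% had one. Median depths before thinning were 46537 and 36922 UMIs in members and 9784 and 8954 in neutrophils, of which 2497 and 1027 were too shallow to enter, as were 11 scratch-positive members.

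Among genes of attachment and the actin ring, 6 of 15 were higher and 0 lower, with a median log2 ratio of 0.36. Cd109, a membrane protein linked to osteoclast formation in mouse, was at 31.4, 46.9 and 132 CPM in control, scratch-negative and scratch-positive, a ratio of 2.82 (2.35 to 3.42). Spp1, osteopontin, an integrin ligand in bone matrix, was at 259, 241 and 435 CPM. Cttn, cortactin, a podosome protein, was at 10.99, 22.4 and 50.8 CPM, and Gsn, gelsolin, was at 174, 106 and 206. The other scratch-negative and scratch-positive barcodes held more Spp1, at 585 and 3119 CPM, and more Gsn, at 237 and 274, than the members, and 15.4 and 86.3 of Cttn. The part of free RNA in these 3 was not tested. The integrin that binds bone did not follow. Itgb3, its beta chain, was at 10.99, 18.9 and 18.7 CPM with overlapping intervals, and Itgav, its alpha chain, was at 168, 158 and 191.

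Receptors for the osteoclast cytokines stayed under the fold, and a co-stimulatory receptor passed it. Tnfrsf11a was at 122, 86.6 and 103 CPM in control, scratch-negative and scratch-positive, a ratio of 1.19 (1.04 to 1.37). Csf1r was at 352, 243 and 205 CPM, highest in control. Oscar, which signals through the adaptor Fcer1g beside RANK, was at 6.28 (1.71 to 16.1), 14.6 (10.3 to 20.1) and 50.6 CPM (48.1 to 53.1), a ratio of 3.47 (2.51 to 4.95). Thinned to 10000 UMIs, Oscar had a UMI in 10.2% of scratch-negative and 30.2% of scratch-positive members, and in 0.0423% and 0.240% of neutrophils. Trem2, a receptor that signals through the adaptor Tyrobp, was at 151, 69.7 and 125 CPM, so that scratch-positive was above scratch-negative and below control. Pirb, an inhibitory receptor, was at 58.1, 57.1 and 29.7 CPM. The other barcodes held more Pirb, at 151, 163 and 33.5 CPM, and the part of free RNA was not tested. Over this signalling list of 14 tested genes, 2 were higher and 1 lower, and the median log2 ratio was 0.06. Tnfsf11, which encodes RANKL, had 0 UMIs in control and scratch-negative members and 0.0314 CPM in scratch-positive.

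The activating transcription factors differed little between the tumour libraries. Of 14 tested, 0 were higher and 1 was lower, with a median log2 ratio of -0.03. Nfatc1 was at 498 CPM in control, 330 in scratch-negative and 345 in scratch-positive, and Spi1 (PU.1), a lineage factor of myeloid cells, was at 675, 694 and 839. The exception was Fos, at 449, 521 and 260 CPM. Fos also responds to dissociation, and 6 of 13 genes of the dissociation and stress list were lower and 2 higher, and the part of handling was not tested. Among repressors of osteoclast formation, Nr4a1 was at 53.4, 53.9 and 17.7 CPM, and Irf8 at 4.71, 18.5 and 7.43. For Nr4a1 control lay above scratch-positive as well, while for Irf8 the order rests on 1 scratch-negative cell that held 59.6% of the UMIs, and without it scratch-negative was at 7.87 CPM. Nr4a1 was also lower in the other barcodes, at 82.7 and 22.3 CPM.

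**Figure D2:**
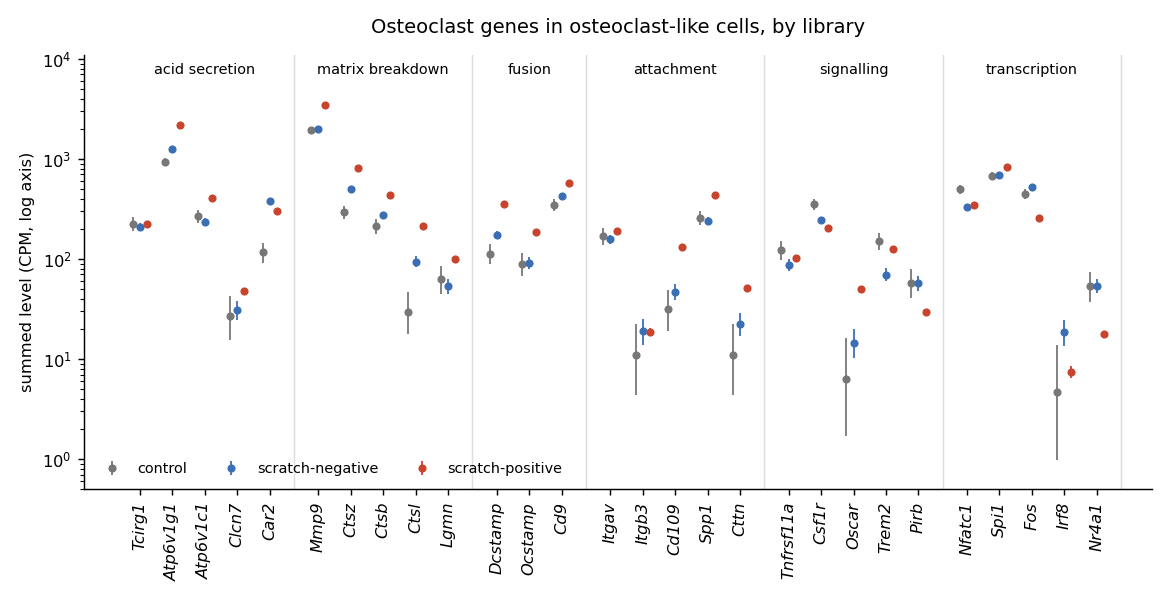
Levels of osteoclast genes summed over osteoclast-like cells (CPM, log axis) in each library, grouped by role; bars are exact Poisson 95% intervals. Oscar (6.28, 14.6 and 50.6 CPM) and Dcstamp (113, 172 and 358) are lowest in control and highest in scratch-positive, whereas Nfatc1 and Tnfrsf11a are highest in control.

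Oxidative metabolism differed little between the tumour libraries. Of 16 oxidative metabolism genes, 2 were higher and 0 lower, with a median log2 ratio of 0.05. Ckb, the brain-type creatine kinase that buffers ATP and is abundant in osteoclasts, was at 493, 1204 and 1952 CPM, a ratio of 1.62 (1.56 to 1.68), and Idh3a, an enzyme of the citric acid cycle, was at 181, 164 and 259. Ckb was under the fold in 4 alternatives, with log2 ratios of 0.40 without members rich in S100a8 and S100a9, 0.42 in members under 2 CP10K of mitotic genes, 0.51 with the mean of per-cell levels and 0.52 after thinning to 10000 UMIs. The hypoxia and glycolysis list gave 4 higher and 4 lower of 20, with a median of 0.28. Mitosis and replication genes had 0 of 18 higher and 2 lower, with a median of -0.13. Among factors by which osteoclasts act on osteoblasts, Lif, a cytokine, was at 4.71, 9.45 and 15.9 CPM, C3, complement component 3, at 22.0, 30.7 and 6.65, and Pdgfb at 72.2, 65.4 and 88.3. Of the 6 tested genes of that list 2, Lif and Ctsk, were higher and 1, C3, lower, and 10 lay under 10 CPM on average. C3 was also lower in the other barcodes, at 254, 189 and 25.9 CPM, and 1 control cell held 78.6% of its UMIs there.

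The antigen-presentation genes were lower in scratch-positive, and few scratch-negative cells decided the ratio to that library. Of 6 MHC class II genes tested, 4 were lower and 0 higher, with a median log2 ratio of -1.37. Cd74, the invariant chain, was at 917 CPM in control, 632 in scratch-negative and 222 in scratch-positive, and H2-Aa was at 182, 146 and 44.6. In scratch-negative the highest cell of each gene held 45.8% of the Cd74 UMIs, 54.2% of those of H2-Aa and 61.7% of those of H2-Eb1. Without the 10 scratch-negative and 62 scratch-positive members rich in S100a8 and S100a9, H2-Aa was at 50.1 and 43.9 CPM and H2-Ab1 at 67.0 and 78.0, so that none of H2-Aa, H2-Ab1, H2-Eb1 and Cd74 passed the fold. After thinning, H2-Aa had a UMI in 13.8% of scratch-positive members and in 31.4% of neutrophils there. Before thinning the shares were 25.1% and 19.5%. Only the deeper neutrophils entered the thinned share, and the part of free RNA was not tested. In control H2-Aa had a UMI in 62.5% of 16 thinned members and 4.05% of neutrophils, and Cd74 in 75% and 8.64%. Without its highest cell, H2-Aa in control was still at 141 CPM.

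Interferon response genes had 1 of 9 tested higher and 4 lower, with a median log2 ratio of -0.42. Cxcl10, a T-cell attracting chemokine, was at 1.57, 36.6 and 14.4 CPM, and Isg15 at 20.4, 61.0 and 31.0, so that scratch-negative was the highest for both. The other barcodes held more of each, Cxcl10 at 36.4, 212 and 93.2 CPM and Isg15 at 57.6, 183 and 39.8. Scratch-negative was the highest there too, and the part of free RNA in Cxcl10 and Isg15 was not tested. In scratch-negative 1 cell held 61.3% of the Cxcl10 UMIs, and without it Cxcl10 was at 14.6 CPM. Without the members rich in S100a8 and S100a9, Cxcl10 turned to a log2 ratio of 0.44. Inflammatory myeloid genes had 3 of 7 higher and 0 lower, with a median of 0.39. Ccl9, a chemokine of the osteoclast lineage in mouse, was at 325, 514 and 823 CPM, far above its 2 companions Cxcl2 (3.14, 21.3 and 113) and Ccl2 (3.14, 5.12 and 29.2). In the other scratch-positive barcodes Cxcl2 stood at 687 CPM and Ccl2 at 262, above the members, so the part of free RNA in these 2 was not tested.

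Of 12 tumour-associated macrophage genes 4 were higher and 2 lower, with a median of 0.46. Gpnmb, a glycoprotein of lysosome-rich phagocytes and osteoclasts, was at 6.28, 6.69 and 26.8 CPM. Arg1, arginase, was at 0, 3.54 and 36.4 CPM. After thinning it had a UMI in 22.8% of scratch-positive members and 24.5% of neutrophils there, against 40.3% and 14.04% before thinning. Only the deeper neutrophils entered the thinned share, and the part of free RNA in Arg1 was not tested. Macrophage and precursor identity genes had 3 of 11 higher and 4 lower, with a median of -0.25. The 4 lower ones were Lyz2, Ly6c2, Cd14 and Itgam, of which the first 3 turned without the members rich in S100a8 and S100a9, to log2 ratios of 0.83, 0.59 and 1.34. The 3 higher ones were C1qa, C1qb and C1qc. C1qb had a UMI in 7.49% of thinned scratch-positive members against 29.2% of neutrophils, and in 20.3% and 16.7% before thinning. In scratch-positive the highest cell of each gene held 27.3%, 21.0% and 20.1% of the UMIs in turn, and the part of free RNA was not tested.

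The genes with the highest ratios were named among those whose level in members was at least that of the other barcodes of the same library, which held for 422 of the 607 higher and 180 of the 421 lower genes. Uchl1, a ubiquitin hydrolase, was at 0 (up to 5.79), 24.0 and 110 CPM, a ratio of 4.59 (3.56 to 6.01). Thinned, it had a UMI in 10.2% of scratch-negative and 52.5% of scratch-positive members, and in 0.296% and 1.56% of neutrophils. Others were Gpnmb (ratio 4.0, 2.48 to 6.89), Edil3, an integrin ligand (3.55, 2.52 to 5.18), Oscar (3.47) and Akr1c18, a steroid dehydrogenase (3.38, 2.31 to 5.15). The rest of the 12 were Rpl39l, Arg1, Dok2, Cxcl14, Capn2, Upp1 and Dab2. Rpl39l rests on 3 scratch-negative UMIs (ratio 18.3, 6.22 to 88.8) and belongs to a family of near-identical ribosomal gene copies, so its count is uncertain. Several of these sums lean on the scratch-negative cell with the most UMIs of the gene, which held 52.9% for Gpnmb, 44.4% for Akr1c18 and 29.7% for Oscar. With the highest cell of each tumour library left out, the ratios were larger, at 8.0, 5.84 and 4.79 in turn.

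Of the lowest ratios, Qprt was the most extreme. Qprt, an enzyme of NAD synthesis from tryptophan, was at 110 CPM in control, 29.9 in scratch-negative and 2.79 in scratch-positive, 10.7-fold lower in scratch-positive than in scratch-negative (7.79 to 14.7). It was near 0 in the other barcodes, at 0.669, 0.553 and 0.0881 CPM, and in scratch-negative its highest cell held 13.2% of the UMIs. Cxcr4, the receptor for Cxcl12, was at 75.3, 67.7 and 14.3 CPM, 4.74-fold lower (3.95 to 5.66), and was 5.04-fold lower in the other barcodes too. Nr4a2, an orphan nuclear receptor, was at 160, 97.7 and 29.2 CPM in members and at 23.7, 36.3 and 43.6 in the others, the opposite order. Others were Nme2, H2-Aa, H2-Eb1, Gstp1, Nuak2, Frat2, Cd101 and St8sia6.

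**Figure D3:**
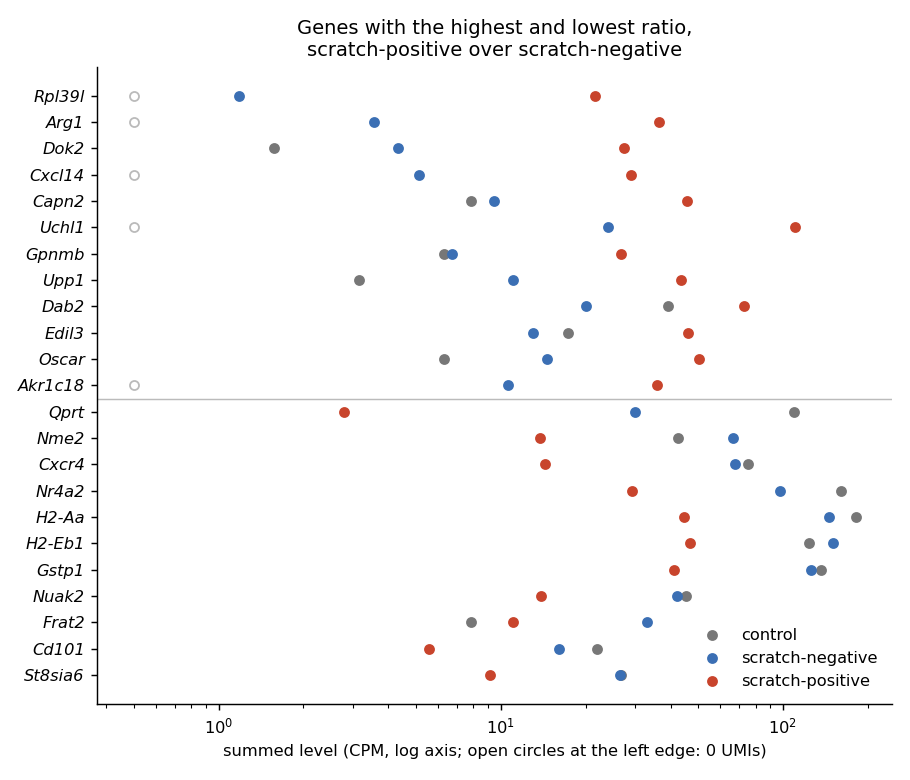
Level (CPM, log axis) summed over osteoclast-like cells of genes with the highest (upper part) and the lowest (lower part) scratch-positive to scratch-negative ratio; each point is 1 library and open circles at the left stand for 0 UMIs. Uchl1 runs from 0 to 24.0 and 110 CPM, and Qprt in the opposite direction from 110 to 29.9 and 2.79.

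Because scratch-positive members carried more Ctsk, the comparison was repeated in members with 30 to 110 CP10K of Ctsk, 361 against 30 cells. Oscar was then at 18.3 CPM against 8.15 in scratch-negative, Uchl1 at 92.1 against 12.9 and Mmp9 at 2213 against 1341. Dcstamp, at 266 against 188 CPM, no longer passed the fold, and Acp5 was at 4004 against 5519. Of 91 named genes past the fold, 90 kept their direction in this range and 63 stayed past the fold.

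Set against other phagocytes of the same library, osteoclast-like cells had more RNA of acid-secretion and respiration genes and less of antigen presentation and inflammation. Only pairs with at least 20 cells on each side were used: Ccr2-positive monocytes in scratch-negative and all 3 classes in scratch-positive. The genes that define the members and the classes are part of these lists and are a description only. Of all tested genes, 27.5% were higher and 35.2% lower than in scratch-negative Ccr2-positive monocytes. In scratch-positive the shares were 22.0% and 23.9% against Arg1-positive macrophages, 18.0% and 24.4% against C1q-high macrophages, and 29.7% and 28.0% against Ccr2-positive monocytes. The phagocytes were shallower, with median UMIs from 8147 to 23831 in the pairs used.

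All 16 oxidative metabolism genes were higher in each of the 4 comparisons, with medians from 1.13 to 1.36 on the log2 scale. Cycs, cytochrome c, was at 1027 CPM in scratch-negative members against 423 in monocytes, and at 966 in scratch-positive members against 293 to 378 in the 3 classes. Ckb was at 1204 against 65.6 CPM in scratch-negative and at 1952 against 87.9 to 209 in scratch-positive. Of 21 acid-secretion genes, 16 to 19 were higher and 1 lower, with medians from 1.59 to 2.04. Tcirg1 stood at 208 against 60.4 CPM in scratch-negative and 221 against 61.7 to 75.5 in scratch-positive. Of 10 fusion genes, 5 or 6 were higher and 2 to 4 lower. The matrix-breakdown list did not share the direction of Ctsk and Mmp9: 4 genes were higher in each comparison, and 6 of 13 in scratch-negative and 7 of 14 in scratch-positive were lower. Of the neutrophil markers, 8 of 10 were higher in members in scratch-negative and 6, 4 and 7 of 9 in scratch-positive, and their part in these comparisons was not tested.

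Receptors and lineage factors split. Tnfrsf11a was at 86.6 CPM in scratch-negative members against 9.69 in monocytes and at 103 against 14.6 to 32.5 in scratch-positive, while Csf1r, a gene used to pick the phagocytes, was slightly lower in members in each comparison. Nfatc1 was at 330 against 20.9 CPM in scratch-negative and at 345 against 50.2 to 88.7 in scratch-positive. The repressors were all lower, 5 of 5 in scratch-negative and 4 of 4 in each scratch-positive comparison, with medians from -4.17 to -3.27. Irf8 was at 7.43 CPM in scratch-positive members against 134 to 154.

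Immune genes were lower throughout. MHC class II genes were lower in 7 of 7 and then 6 of 6 genes, with Cd74 at 222 CPM in scratch-positive members against 3352 to 5109. Inflammatory myeloid genes were lower in 13 of 14 in each comparison, and the exception was Ccl9, at 823 CPM against 201 to 398 in scratch-positive. Interferon response genes were lower in 19 of 19 in scratch-negative and in 12 of 13, 10 of 11 and 14 of 14 in scratch-positive. Mitosis genes gave no common direction: 15 of 18 were higher than in scratch-negative monocytes, and 15 of 18 were lower than in C1q-high macrophages of scratch-positive.

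Genes were also ranked by the smallest of their 4 ratios, and Mt3, a metallothionein best known from brain, came first. It was at 285 CPM in scratch-negative and 369 in scratch-positive members, against 0.745 to 4.18 in the phagocyte classes. Scin, the actin-severing protein scinderin, was at 69.7 and 119 CPM against 0.745 to 2.09, and Slc9b2, a sodium-proton exchanger of osteoclasts, was at 220 and 480 against 0.745 to 16.7. Angpt2, an angiopoietin, was at 26.8 and 83.2 CPM against 0 to 3.52. Phagocyte levels this low rest on few UMIs, in classes of 53 to 145 cells, so the order of these genes is imprecise. The others among the 15 were Mmp9, Cd200, Akap6, Kazn, Ecscr, Car2, Serpind1, Rufy4, Myo1d, Cfap45 and Fam102a. The 15 genes lowest in all comparisons included Adgre1 (F4/80), a macrophage surface protein, at 1.18 and 1.32 CPM in members against 61.7 to 74.2, Fcgr1, a receptor for antibodies, at 4.33 and 1.98 against 111 to 218, and F13a1, coagulation factor XIII, at 0.394 and 1.60 against 49.2 to 432.

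**Figure D4:**
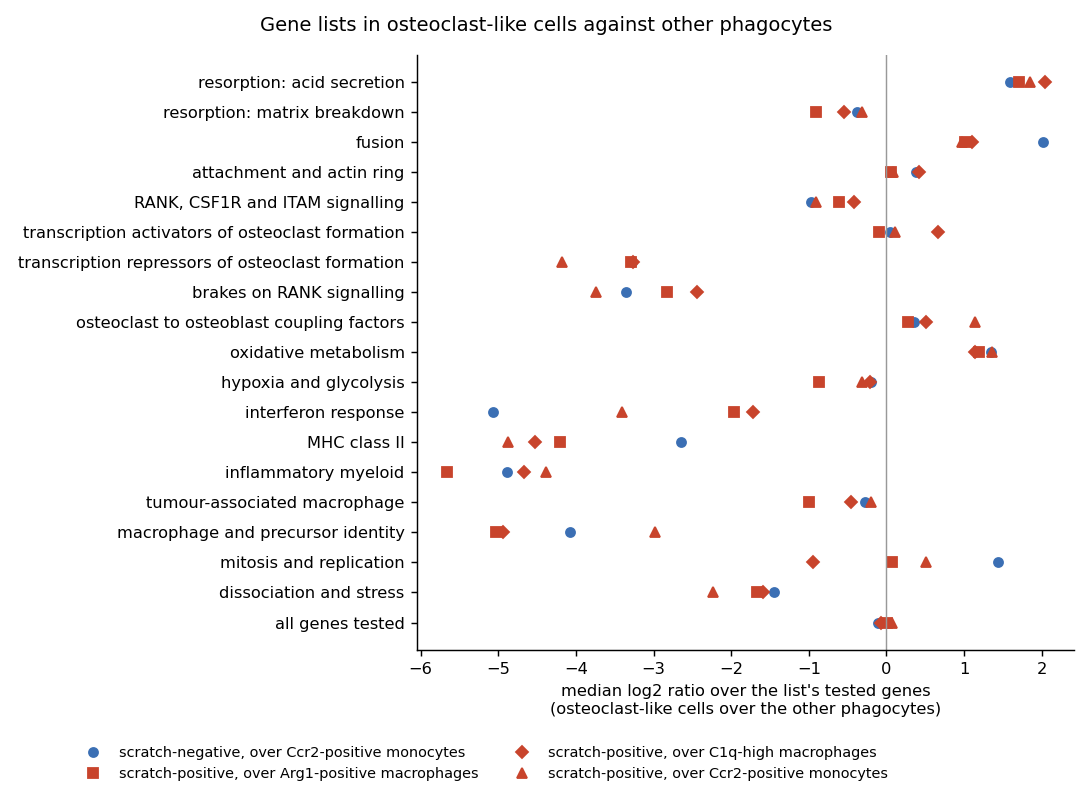
Median log2 ratio of each gene list in osteoclast-like cells over other phagocytes of the same library; each symbol is 1 of 4 comparisons and the vertical line marks equal levels. Oxidative metabolism and acid secretion lie right of the line in all 4, and MHC class II and inflammatory genes lie left of it.

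The 839 scratch-positive cells varied along Ctsk. They were ordered by Ctsk and the lowest 209, up to 72.4 CP10K, were set against the highest 209, from 159 CP10K. Of 6741 genes, 13.8% were higher in the highest group and 20.1% lower. Median UMIs were 39042 in the lowest and 29567 in the highest group. All cells share 1 library, so these are descriptions of that library.

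Most resorption genes were higher together with Ctsk. All 20 acid-secretion genes tested were higher in the highest group, with a median log2 ratio of 1.09 against -0.09 for all genes. Of 13 matrix-breakdown genes tested, Ctsk included, 8 were higher and 2 lower, with a median of 0.62. Acp5 was at 3065 CPM in the lowest and 12207 in the highest group, Mmp9 at 1294 and 6400, and Ckb at 565 and 4086. Itgb3, flat between the libraries, was at 5.41 and 45.2 CPM here, and Oscar was at 9.53 and 136. Dcstamp was at 188 and 576 CPM and Ocstamp at 77.2 and 341. Siglec15, a lectin of the osteoclast lineage, was at 4.24 and 24.1 CPM, and the coupling factor Sphk1 at 3.77 and 19.4. Across the cells, Spearman's rho with Ctsk was 0.81 for Acp5, 0.75 for Mmp9 and 0.60 for Ckb over 839 cells, and 0.79, 0.74 and 0.57 over 828 cells thinned to 10000 UMIs. Ctsk and Acp5 helped to choose the cells, as did Atp6v0d2 among the acid-secretion genes, so their relation is a description. The same cells and totals underlie both sides of these correlations, and rho with UMIs per cell was -0.23.

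The mitotic programme ran the other way. All 18 mitosis and replication genes were lower in the highest group, with a median log2 ratio of -3.74. Mki67, the proliferation antigen, was at 149 CPM in the lowest and 2.29 in the highest group, and Top2a, the mitotic topoisomerase, at 193 and 8.71. After thinning to 10000 UMIs, at least 5 UMIs of 12 mitotic genes were found in 65.7% of the lowest, 43.5% of the second, 15.5% of the third and 0.966% of the highest 207 cells. Over all members that share was 31.3% in control (5 of 16 cells), 32.7% in scratch-negative (16 of 49) and 31.4% in scratch-positive (260 of 828), so the libraries hardly differed in it. Of equally thinned neutrophils, 33.8%, 35.0% and 46.9% reached the same minimum. Without thinning the shares were 41.2%, 55.1% and 52.0% of members and 14.4%, 19.5% and 25.6% of neutrophils. The neutrophil gate set no limit on mitotic genes, so its shares are no measure of free RNA. The part of free RNA in the members was not tested.

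Regulators differed less along this order than resorption genes. Nfatc1 was at 305 CPM in the lowest and 403 in the highest group and Tnfrsf11a at 85.8 and 123, both under the fold, while Csf1r was at 145 and 324. Of 15 activating factors tested 2 were higher and 0 lower. Inflammatory myeloid genes were lower in 11 of 12 and MHC class II genes in 5 of 6. Per cell, MHC class II did not follow Ctsk, with a rho of -0.02 over 839 cells. The lowest group also held more RNA of genes known from other cells, and the source of that RNA was not tested. In the highest group 9 of 9 neutrophil markers were lower. Prtn3, a granule protease of granulocyte precursors, was at 209 and 3.05 CPM, and Gzma, a granzyme of killer lymphocytes, at 32.4 and 0.153. Without the highest doublet scores, 198 cells a group, Mki67 was at 151 and 2.44 CPM, Prtn3 at 162 and 2.93, and Cd74 at 225 and 196 in place of 387 and 199. Without members rich in S100a8 and S100a9, Mki67 was at 144 and 2.17 CPM and Prtn3 at 165 and 2.67. There S100a8 was at 385 and 280 CPM and Gzma at 10.1 and 0.167.

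Among the 12 genes with the largest excess in the highest group were Mt3, at 48.7 and 896 CPM, Akr1c18, at 5.65 and 85.5, Edil3, at 9.88 and 102, Mst1r, a receptor tyrosine kinase, at 16.2 and 120, and St8sia6, a sialyltransferase, at 1.65 and 23.5. St8sia6 was higher with Ctsk among scratch-positive cells and yet lower in scratch-positive than in scratch-negative, at 9.19 against 26.4 CPM. The remaining ones were Rpl39l, Tspan7, Oscar, Ltbp3, Tdrd5, Itgb3 and Ckb. The 12 genes most depleted were largely of cell division, Esco2, Rad51ap1, Knl1, Shcbp1, Aspm, Dlgap5, Hist1h2ab and Mki67, with Gzma, Gatm, Prtn3 and Ctsg.

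**Figure D5:**
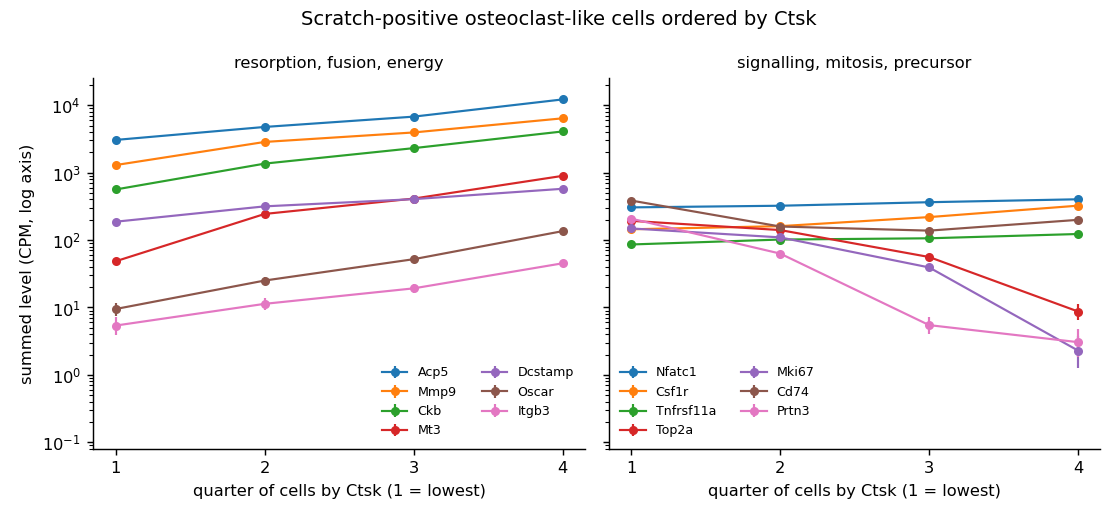
Level (CPM, log axis) of 14 genes in scratch-positive osteoclast-like cells divided by Ctsk into 4 groups of equal size (1 lowest, 4 highest); bars are exact Poisson 95% intervals. Acp5, Mmp9, Ckb and Oscar are higher at each step, Mki67 and Top2a are lowest in group 4 at 2.29 and 8.71 CPM, and Nfatc1 stays between 305 and 403.

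The starts of Ctsk and Oscar are shown because both genes were higher together among the cells, and Oscar differed more between the libraries. Ctsk lies at chr3:95499256-95509362 on the plus strand and Oscar at chr7:3609813-3616157 on the minus strand of GRCm38. The 250 bases before each start, from RefSeq on GRCm38.p6, are printed 5′ to 3′ on the gene's strand, with capitals marking GAGGAA, a core letter pattern of PU.1 sites, and GGAAA, a core of NFAT sites, on either strand.
Ctsk, chr3:95498960-95499209: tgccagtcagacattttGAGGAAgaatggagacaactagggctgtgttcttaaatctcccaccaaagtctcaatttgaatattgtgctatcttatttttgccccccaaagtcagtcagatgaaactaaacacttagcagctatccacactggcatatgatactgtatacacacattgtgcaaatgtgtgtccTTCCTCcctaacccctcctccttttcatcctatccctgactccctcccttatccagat
Oscar, chr7:3616158-3616407: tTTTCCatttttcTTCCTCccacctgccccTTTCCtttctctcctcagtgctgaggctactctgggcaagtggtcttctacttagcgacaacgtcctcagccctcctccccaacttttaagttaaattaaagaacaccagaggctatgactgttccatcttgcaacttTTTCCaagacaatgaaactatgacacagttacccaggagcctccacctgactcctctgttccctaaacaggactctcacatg
The Ctsk window held 2 matches of GAGGAA and 0 of GGAAA, and the Oscar window 1 and 3. TGANTCA, the AP-1 pattern, had 0 matches in both. Of 32851 windows of the same length before annotated starts, 23.3% held GAGGAA, 55.6% GGAAA and 6.75% TGANTCA, so single matches are common. The matches are letters in a window and say nothing of binding.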

How the data were processed

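The deposited values were raw UMI counts per gene and barcode over 31053 genes, which per the file headers came from Cell Ranger 6.1.2; build mm10 is named in the submitters' processing notes; the matrices held 7490, 8517 and 9504 barcodes and 100089008, 167623741 and 395654008 UMIs in control, scratch-negative and scratch-positive. How the authors filtered barcodes is not given in the sources used here, and no doublets are known to have been removed. Barcode and gene lists were used only as names.

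From these counts, members were chosen as described, and the members, gene lists and limits were chosen with earlier results of these data known. Other phagocytes were gated in CP10K with Csf1r of at least 1, Lyz2 of at least 10, S100a8 plus S100a9 under 300 and the same keratin and collagen limits, then Arg1 of at least 5, C1q genes of at least 10 or Ccr2 of at least 1, in that order. UMIs were summed per class and library and given as CPM with exact Poisson intervals. Ratios carry exact conditional binomial intervals, and shares carry exact Clopper-Pearson intervals. For log2 ratios a count averaging 0.5 UMI was added to each side, scaled to the total UMIs of that side. PCR and free RNA are outside these intervals, which cover counting error only. Named genes were the osteoclast lists by role, 2 to 4 members of other lists, the 12 highest and 12 lowest ratios and the 15 most different from phagocytes. Thinning drew UMIs without replacement, and neutrophils for the background had Retnlg of at least 5 and S100a8 plus S100a9 of at least 300 CP10K. The shares after thinning, the mitotic shares and the weight of single cells were added after seeing the data. Promoter sequences are from RefSeq and positions from GENCODE annotation of GRCm38. Scanpy 1.11.5 (Scrublet, expected rate 0.06), edgeR 4.0.16 (TMM factors only), pandas 2.3.3, SciPy 1.17.1 and NumPy 2.4.6 under Python 3.11.15 were used, and the ratio step was tested on simulated data. Results for some named genes are not reported here.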

Additional observations from a re-analysis of the deposited data

How the results depend on the processing

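No paired analysis was possible because each group had 1 library, and no replicate could be left out. The count of genes for scratch-negative against control was not run, since control held 17 members, under the minimum of 20. The control and scratch-negative shares stayed within their intervals under all 11 alternatives. The scratch-positive share of 9.22% moved to 9.99% with a minimum of 1000 genes, 8.03% with the lower limits doubled, 10.2% after thinning to 5000 UMIs, 10.3% without the keratin and collagen limits and 8.54% without members rich in S100a8 and S100a9. The 607 higher and 421 lower genes became 1425 and 1380 with a minimum mean of 1 CPM, and 1076 and 738 after thinning to 10000 UMIs. Under the other alternatives the counts were within 1.5 times of these, but the genes called changed more. Of the 607 and 421 genes, 423 and 308 were called again after thinning and 374 and 257 with Ctsk of 30 to 110 CP10K. Without members rich in S100a8 and S100a9 they were 452 and 290, and with the mean of per-cell levels 495 and 352. A minimum mean of 1 CPM kept all 607 and 421. TMM factors gave 504 and 482 and median-of-ratios factors 526 and 471, a share of higher calls of 51.1% and 52.8% in place of 59.0%. Scrublet scores, removed at 0.8% per 1000 barcodes, took 0, 0 and 45 members, and left 653 and 441.

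Of 91 named genes past the fold, 83 kept their direction and 65 stayed past the fold without members rich in S100a8 and S100a9. There the log2 ratios of H2-Eb1 (0.053), H2-Ab1 (0.22), Slc16a3 (0.20), Irf7 (1.41), Cxcl10 (0.44), Lyz2 (0.83), Ly6c2 (0.59) and Cd14 (1.34) turned positive. Irf7 also turned with the mean of per-cell levels (0.057) and, in an alternative chosen after seeing the data, with Ctsk of 30 to 110 CP10K (0.10). The causes were not tested. In members under 2 CP10K of mitotic genes, also chosen after seeing the data, 878 genes were higher and 571 lower, and all 91 kept their direction. Control values rest on 637029 UMIs, so a gene under about 10 CPM there has a wide interval.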
